A study of Mus musculus with 8 samples.

Results

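Bone-resorbing osteoclasts form from blood-derived precursors under a small set of signals, and the RNAs of 10 genes of this system were counted in single cells of the mouse periosteum after normal or high-fat feeding. The genes were chosen by symbol out of 32285 genes in the deposited matrices. They were the ligands Tnfsf11 (RANKL), Csf1 (M-CSF) and Il34, the decoy receptor Tnfrsf11b (osteoprotegerin, OPG), the receptors Tnfrsf11a (RANK), Csf1r and Oscar, and the osteoclast products Dcstamp, Acp5 (tartrate-resistant acid phosphatase, TRAP) and Ctsk (cathepsin K). All 10 had at least 1 unique molecular identifier (UMI, a tag that marks 1 captured RNA molecule) in each library. Tnfrsf11b, Tnfrsf11a, Il34 and Tnfsf11 were sparse, at 72 to 190 UMIs a library, and Oscar and Dcstamp were near the limit of detection.

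The periosteum is the thin cell layer that covers bone. C57BL/6J male mice received normal chow (ND) or, from the age of 4 weeks and for 12 weeks, a high-fat diet (HFD) in which fat supplied 60% of the calories, and the left femurs and tibias were digested with collagenase and dispase at 16 weeks. For each diet, the cells of 4 mice stood in 1 matrix with no mark of the mouse of origin. Each diet was therefore 1 library, and no test between the diets could be made. The 95% intervals given here cover counting error only, not the variation between cells, between mice or between library preparations.

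RANKL is made mainly by cells of the bone-forming and stromal lineages, and binds RANK on precursors of the monocyte and macrophage lineage. OPG, a soluble receptor made by mesenchymal cells, catches RANKL before it reaches RANK. M-CSF and IL-34 both act on the CSF1 receptor, which keeps monocytes, macrophages and osteoclast precursors alive, and OSCAR and related receptors give a costimulatory signal through adaptors that carry an immunoreceptor tyrosine-based activation motif (ITAM).

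After removal of barcodes outside 500 to 8000 genes or at 20% or more mitochondrial UMIs, 6029 ND and 6224 HFD cells remained, with a median of 4610 and 4823.5 UMIs per cell. The kept cells held 48106513 and 49411888 UMIs, and 14 kept barcodes occurred in both libraries. Clusters were named from marker genes, and a class is written as X-like for that reason. Neutrophil-like cells made up 39.9% and 39.1% and B cell-like cells 25.1% and 23.7% of the kept cells, so that blood and marrow cells outnumbered the 409 ND and 668 HFD mesenchymal-like cells (6.78% and 10.7%). No cluster carried the name osteoclast, and 1 cluster of 313 and 242 cells of low depth, led by Car1, Ctla2a and Pf4, stayed unnamed. Levels are UMIs scaled to a class total of 1000000 UMIs (UPM). A ratio is the log2 of HFD over ND with 0.5 UMI added to each count. For a ratio without the leading cell, the gene's UMIs in the 1 cell of either library with the most were left out. The other UMIs of that cell stayed in the total of its group. The leading cell of the other library was kept. Both points make such a ratio favour that other library, the unchanged total more so in small groups. A gene was counted as past the fold when it differed by at least 1.5-fold and its UMIs in that class numbered 20 or more when ND and HFD were added.

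Tnfsf11, Tnfrsf11b, Il34 and Csf1 lay mostly outside the macrophage-like and monocyte-like cells, which held most UMIs of the receptors Tnfrsf11a and Csf1r. Of the Csf1 UMIs, 1.40% were in monocyte-like and 0.148% in macrophage-like cells, but Csf1 shared the neutrophil-like class with part of Csf1r. Over both libraries, mesenchymal-like cells held 97.4% of the Tnfrsf11b UMIs, 85.8% of the Ctsk UMIs, 73.5% of the Il34 UMIs and 50.7% of the Tnfsf11 UMIs. Macrophage-like and monocyte-like cells held 52.8% and 28.8% of the Tnfrsf11a UMIs and 37.0% and 40.4% of the Csf1r UMIs. Neutrophil-like cells held a further 15.7% of the Csf1r UMIs. Csf1 and Acp5 were spread more widely. Neutrophil-like cells held 44.8% and mesenchymal-like cells 33.8% of the Csf1 UMIs, and B cell-like cells held 40.1% of the Acp5 UMIs against 21.9% in monocyte-like cells.

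Over all kept cells, 2 of 9 members with enough UMIs passed the fold, against 15.5% of 15994 genes. Both were higher in HFD. Tnfsf11 had 72 UMIs in 36 ND cells and 145 UMIs in 61 HFD cells (log2 ratio 0.97, 0.55 to 1.40), and Tnfrsf11b had 114 and 190 UMIs (0.70). Of the Tnfsf11 UMIs, 13 in ND and 35 in HFD were in the unnamed cluster, where 1 HFD cell held 17. That cluster also enters the weighted ratios that follow. The HFD library held more mesenchymal-like cells, and with every class weighted to its share over both libraries the ratio was 0.79 for Tnfsf11 and 0.21 for Tnfrsf11b. The comparison within classes is therefore the one followed below.

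Tnfsf11 (chr14:78277445-78308043, minus strand, mm10) encodes RANKL. In mesenchymal-like cells it had 29 UMIs in 16 of 409 ND cells and 81 UMIs in 34 of 668 HFD cells, which gave 6.07 UPM (4.06 to 8.71) and 11.6 UPM (9.25 to 14.5). The level was 1.90-fold higher in HFD (log2 0.93, 0.31 to 1.61), and 0.80 (0.17 to 1.48) without the cell with the most Tnfsf11 UMIs. In this class 2 of 7 members tested passed the fold, against 14% of 12615 genes, and the other was Csf1r, in the opposite direction. Thinned to 1000 UMIs per cell, 4 of 409 ND cells and 7 of 663 HFD cells kept a Tnfsf11 UMI, 0.978% and 1.06%, and the log2 ratio of the thinned counts was −0.25 (−2.08 to 1.79). At this depth too few UMIs were left to show a difference of the unthinned size, which lies within that interval.

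Within the mesenchymal-like cells, 89.1% (81.7 to 94.2) of the Tnfsf11 UMIs lay in a single subcluster led by Mmp13, Ibsp, Spp1, Postn, Bglap and Alpl, genes of bone matrix and mineral formation. It took no name, as markers of osteoblasts and of Postn-positive osteogenic cells led it together. There Tnfsf11 had 20 UMIs in 13 of 59 ND cells and 78 UMIs in 32 of 128 HFD cells, or 36.2 UPM (22.1 to 55.9) and 70.7 UPM (55.9 to 88.3). The log2 ratio was 0.94 (0.24 to 1.75), and 0.81 without the leading cell, in a subcluster where 23.8% of genes passed the fold. Cells with a Tnfsf11 UMI made up 22.03% and 25.0%, and in these the mean was 1.54 UMIs in ND and 2.44 in HFD. Neutrophil markers in this subcluster summed to 2667 UPM in ND and 6938 UPM in HFD, and their part in the Tnfsf11 difference was not tested. The counts per cell differed in their upper end. In ND, 8 cells held 1 UMI, 3 held 2, 2 held 3 and none held more, whereas in HFD 11 held 1, 11 held 2, 2 held 3 and 8 held 4 or more, with a highest count of 7. Thinned shares were 5.08% and 5.56%. Cells with a Tnfsf11 UMI were deeper (median 10408 and 9652.5 UMIs) than those without (7137.5 and 6655.5). Neutrophil-like cells, which should lack the gene, held it in 0 of 2405 ND cells, which allows a share of up to 0.125%, and in 3 of 2431 HFD cells (0.123%), at median depths of 4133 and 4303 UMIs.

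After the mesenchymal-like cells, the unnamed cluster held the most Tnfsf11 UMIs, 22.1% over both libraries. These were 13 UMIs in ND and 35 in HFD, 17 of the latter in 1 cell. The gene also occurred in a few cells of named blood classes, each time in small numbers. B cell-like cells held 21 UMIs in ND and 5 in HFD (log2 −1.96, −3.83 to −0.62), the single one of 4 members tested there past the fold, against 10.2% of genes. Of these, 20 and 2 UMIs lay in a B cell-like cluster led by Vpreb3, Igll1 and Vpreb1, genes of early B cells, where 8 ND cells held them and 1 held 7, and the ratio in the class was −1.39 (−3.31 to 0.07) without that cell. Dendritic-like cells, whose leading genes Siglech and Ccr9 mark plasmacytoid dendritic cells, held 1 UMI in ND and 14 in HFD, the latter in 4 cells. T cell-like cells, a known source of RANKL after activation, held 8 and 6 UMIs.

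Tnfrsf11b (chr15:54250619-54278484, minus strand) encodes OPG. Mesenchymal-like cells held 113 ND and 183 HFD UMIs, 23.6 UPM (19.5 to 28.4) and 26.3 UPM (22.6 to 30.4). Their log2 ratio was 0.15 (−0.19 to 0.51). A single ND cell held 26 UMIs, and the highest count in an HFD cell was 22. Without the ND cell alone the ratio was 0.53 (0.16 to 0.92), so the size of this difference rested on few cells. Chondrocyte-like cells, which express Acan, Col2a1 and Sox9, had the highest level, 38 UMIs or 153.5 UPM (109 to 211) in 16 ND cells and 114 UMIs or 173.9 UPM (143 to 209) in 53 HFD cells. The ND cell with 26 UMIs was one of the 16. The log2 ratio in this subcluster moved from 0.17 to 1.79 without it, with an HFD cell of 22 UMIs kept. Pi16 fibroblast progenitor-like cells had 35 UMIs (28.9 UPM) in ND and 18 (14.1 UPM) in HFD, a log2 ratio of −1.02 that was −0.54 without the leading cell. In that subcluster 17.5% of 8647 genes passed the fold. The subcluster led by Mmp13 and Ibsp had 16 UMIs (28.9 UPM) in 3 ND cells and 41 UMIs (37.2 UPM) in 10 HFD cells. Of these, 13 and 14 were in 1 cell each.

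RANKL and OPG RNAs were thus highest in different mesenchymal-like subclusters. Of 1077 such cells, 50 held a Tnfsf11 UMI, 84 held a Tnfrsf11b UMI and 1 held both. Tnfsf11 UMIs were 20.4% (14.1 to 28.0) of 142 Tnfsf11 and Tnfrsf11b UMIs in ND and 30.7% (25.2 to 36.6) of 264 in HFD. In the Mmp13- and Ibsp-led subcluster the share was 55.6% (38.1 to 72.1) of 36 UMIs and 65.5% (56.3 to 74.0) of 119. Of the Tnfrsf11b UMIs there, 13 of 16 in ND and 14 of 41 in HFD were in 1 cell each. The direction of this difference in share between the diets therefore rested on few cells. It was 0 of 53 UMIs in Pi16 fibroblast progenitor-like cells, which allows up to 5.66%, and 0 of 152 in chondrocyte-like cells, which allows up to 1.97%. The intervals of ND and HFD overlapped both over the class and within the subcluster, while the subclusters themselves were far apart. These are shares of captured 3′ RNA tags, not of protein.

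**Figure D1:**
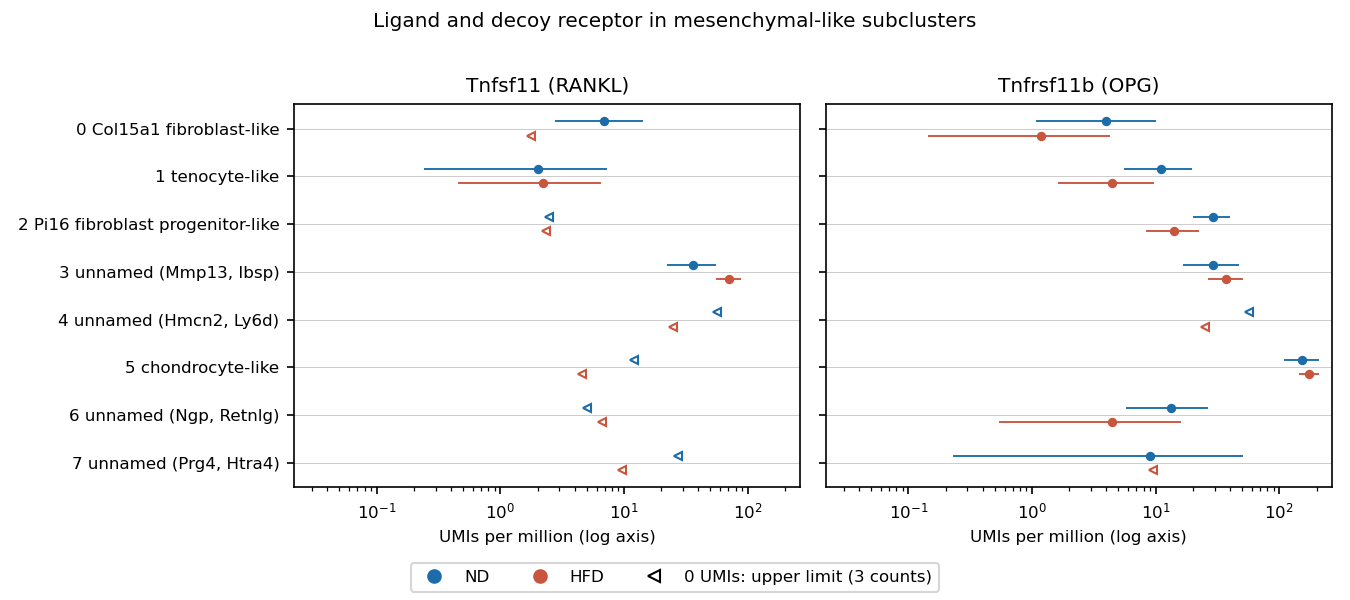
Levels of Tnfsf11 and Tnfrsf11b, in UPM, in the mesenchymal-like subclusters for ND and HFD, with 95% Poisson intervals for counting error. Tnfsf11 is concentrated in the subcluster led by Mmp13 and Ibsp, at 36.2 UPM in ND and 70.7 UPM in HFD, and Tnfrsf11b in chondrocyte-like cells, at 153.5 and 173.9 UPM.

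Csf1 (chr3:107741048-107760469, minus strand) encodes M-CSF, the survival factor of the monocyte lineage. Its highest level was in basophil/mast-like cells, with 334 UMIs in 36 of 47 ND cells and 230 UMIs in 40 of 53 HFD cells, 638 UPM (572 to 710) and 416 UPM (364 to 474). The log2 ratio was −0.62 (−0.87 to −0.37), and −0.46 without the leading ND cell, which is under the fold. Neutrophil markers in this class summed to 6443 UPM in ND and 1310 UPM in HFD, and their part in the difference was not tested. Both members tested in this class, Csf1 and Acp5, passed the fold, 2 of 2 against 23% of 5131 genes. Neutrophil-like cells held 1091 UMIs (67.9 UPM) in ND and 730 (42.8 UPM) in HFD, a log2 ratio of −0.66 (−0.80 to −0.53) that was −0.65 without the leading cell. In that class 2 of 4 members tested, Csf1 and Ctsk, passed the fold, against 13.5% of 10891 genes.

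Most of the neutrophil Csf1 was in a cluster led by Il1r2, Il1b and Acod1, genes of activated neutrophils, with 735 UMIs (382 UPM) in 690 ND cells and 507 UMIs (288 UPM) in 621 HFD cells. The largest neutrophil-like cluster had 64.6 and 42.1 UPM. Within the first the difference was under the fold (log2 −0.41, −0.57 to −0.24) and within the second just past it (−0.62, −0.91 to −0.33). In the second, 14.4% of 7098 genes passed the fold. The make-up of the class also differed, as 1 neutrophil-like cluster at 38.2 UPM in ND held 170 ND and 19 HFD cells and another, at 8.84 and 5.34 UPM, 253 and 384. Mesenchymal-like cells held 624 UMIs (131 UPM) in 225 ND cells and 750 UMIs (108 UPM) in 316 HFD cells, a log2 ratio of −0.28 (−0.43 to −0.12). The Pi16 fibroblast progenitor-like subcluster had the highest named mesenchymal level, with 215 and 216 UPM, and Col15a1 fibroblast-like cells had 170 UPM (146 to 198) in ND and 134 UPM (117 to 152) in HFD. Of the Csf1 UMIs of the ND library, neutrophil-like cells held 49.2% and mesenchymal-like cells 28.1%. In HFD, with its larger number of mesenchymal-like cells, the shares were 39.5% and 40.6%.

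Il34 (chr8:110741829-110805924, minus strand), the other ligand of the CSF1 receptor, was confined mostly to mural-like and mesenchymal-like cells. In mural-like cells, the contractile cells of vessel walls, it had 20 UMIs in 14 of 31 ND cells and 33 UMIs in 20 of 59 HFD cells, 63.4 UPM (38.7 to 97.8) and 58.6 UPM (40.3 to 82.3). Mesenchymal-like cells held 81 and 102 UMIs, 16.9 UPM (13.5 to 21.1) and 14.7 UPM (11.96 to 17.8). The log2 ratios were −0.13 (−0.96 to 0.77) and −0.21 (−0.64 to 0.23), so the intervals of both reached past a level 1.5-fold lower in HFD. In mural-like cells it was the single member tested, 0 of 1 past the fold against 23.7% of genes. Tenocyte-like cells, which express Tnmd and Scx, led the named mesenchymal subclusters, with 33.2 UPM in ND and 34.7 UPM in HFD.

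Tnfrsf11a (chr1:105780718-105847981, plus strand) encodes RANK. Macrophage-like cells, led by C1qa, Lyve1 and Vsig4, held 94 UMIs in 51 of 88 ND cells and 58 UMIs in 33 of 91 HFD cells, 80.3 UPM (64.9 to 98.2) and 57.8 UPM (43.9 to 74.7). The log2 ratio was −0.47 (−0.97 to 0.01), and −0.34 without the leading cell, and the intervals of both levels overlapped. Thinned to 1000 UMIs, 5 of 87 and 5 of 91 cells kept a UMI. Monocyte-like cells had 7.21 and 7.26 UPM, a log2 ratio of 0.01. One of the monocyte-like clusters, led by H2-Eb1, Retnla and Mgl2, held 1 UMI in 112 ND cells and 16 UMIs in 137 HFD cells, while the cluster led by Ms4a6c, F13a1 and Lyz2 held 31 and 25 and that led by Ccl2 held 9 and 1. The equal levels of the class were thus made up of differing parts. The cluster led by H2-Eb1 scored almost as high for macrophage as for monocyte markers (a mean log2 of 2.66 and 2.91 above the median cluster), with none of either among its top 10 genes, so its place in the monocyte-like class is uncertain. Mural-like cells held 2 UMIs in ND and 13 in HFD. In B cell-like cells, which served as background, 3 of 1515 and 1 of 1477 cells held the gene.

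Csf1r encodes the receptor of M-CSF and IL-34. Every ND macrophage-like cell and 89 of 91 HFD macrophage-like cells held a UMI, at 932 UPM (878 to 989) and 899 UPM (841 to 960), a log2 ratio of −0.05 (−0.18 to 0.08). Monocyte-like cells had 180 UPM (169 to 192) and 199 UPM (188 to 211), log2 0.15 (0.02 to 0.27). Neutrophil-like cells had 26.1 and 25.1 UPM and blood progenitor-like cells 18.7 and 15.0 UPM. The receptor thus differed by less than 1.5-fold between the diets in each named blood cell class with at least 20 UMIs, while the unnamed cluster held 57 UMIs (26.2 UPM) in ND and 24 (12.3 UPM) in HFD. In mesenchymal-like cells, by contrast, it had 48 UMIs (10.0 UPM) in 20 ND cells and 18 UMIs (2.59 UPM) in 14 HFD cells, a log2 ratio of −1.93 (−2.82 to −1.15) and −1.60 without the leading cell. The 7 macrophage markers, all of them detected in both libraries, summed to 301 UMIs (63.0 UPM) in ND and 31 UMIs (4.46 UPM) in HFD mesenchymal-like cells, and neutrophil markers to 19019 and 8669 UPM. Most of the neutrophil marker UMIs, 71189 of 90921 in ND and 41150 of 60276 in HFD, lay in a subcluster of 32 and 30 cells that was itself led by the neutrophil genes Ngp and Retnlg. The part of the macrophage and neutrophil markers in the Csf1r difference was not tested.

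Oscar (chr7:3609813-3616157, minus strand), the collagen-binding costimulatory receptor, had 1 UMI in each library, both in tenocyte-like cells, and no level can be read from it. Dcstamp (chr15:39745930-39760938, plus strand), a membrane protein needed for fusion of osteoclast precursors, had 28 ND and 22 HFD UMIs, in 11 cells of each library. Monocyte-like cells held 18 and 20 of them, but 14 of the ND UMIs were in a single cell. The log2 ratio was 0.12 (−0.87 to 1.13) with this cell and 2.16 (0.72 to 4.31) without it. In HFD most of the UMIs lay in the monocyte-like cluster led by H2-Eb1 and Retnla, which held 3 UMIs in 3 ND cells and 19 UMIs in 8 HFD cells. The ratio was from −3.36 to −3.28 in 3 other clusterings of the same cells, in which no cluster led by these genes was monocyte-like. In macrophage-like cells 5 UMIs were found, all in 1 ND cell.

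Acp5 (chr9:22126727-22135711, minus strand) encodes TRAP, the enzyme by which osteoclasts are stained in sections. It had 1737 UMIs in 909 ND cells and 1419 UMIs in 829 HFD cells, most of them lymphocytes. B cell-like cells had 673 UMIs in 32.7% of cells and 593 UMIs in 30.5% of cells, 88.0 UPM (81.5 to 94.95) and 77.8 UPM (71.7 to 84.3), a log2 ratio of −0.18. The B cell-like cluster led by light chain genes and Ms4a1 had 140 and 122 UPM. T cell-like cells had 100 UPM in 47.1% of ND cells and 116 UPM in 52.0% of HFD cells (log2 0.21, −0.09 to 0.51), so 0 of 1 member tested passed the fold there, against 15.8% of genes. Counts per lymphocyte were low, with at most 5 in a B cell-like cell and 7 in a T cell-like cell. Neutrophil-like cells had 1.37 and 1.41 UPM, in 0.790% and 0.864% of cells, at median depths (4133 and 4303 UMIs) near those of the B cell-like cells (3885 and 3822). The share in lymphocytes was thus far above that in a class of like depth from the same suspension.

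NK cell-like cells had 38.3 and 39.0 UPM of Acp5 and tenocyte-like cells 64.4 and 63.5 UPM, close to equal between the diets. Over all mesenchymal-like cells the levels were 27.4 and 26.6 UPM. Their highest subcluster level was in 5 ND and 15 HFD cells led by Prg4, with 21 UMIs (191 UPM) and 33 UMIs (106 UPM). Erythroid-like cells had 45 UMIs (80.8 UPM) in 12 of 32 ND cells and 91 UMIs (190 UPM) in 10 of 26 HFD cells, a log2 ratio of 1.23 (0.71 to 1.78) and 0.89 without the leading cell. It was the single member tested in that class, 1 of 1 past the fold against 25% of genes. Mesenchymal markers in the erythroid-like cells summed to 19.7 UPM in ND and 1733 UPM in HFD, and their part in this difference was not tested. Basophil/mast-like cells had 27 and 14 UMIs, 51.6 and 25.3 UPM, with 12 of 47 and 13 of 53 cells positive.

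In monocyte-like and macrophage-like cells, where osteoclasts and their precursors would be placed, the Acp5 counts rested on few cells. Monocyte-like cells held 457 UMIs (80.4 UPM) in ND and 233 (40.3 UPM) in HFD, of which 296 and 123 were in 1 cell each. The log2 ratio was −0.99 (−1.23 to −0.77) with all cells. It was 0.51 (0.21 to 0.81) without the ND cell of 296 UMIs and with the HFD cell of 123 kept. Macrophage-like cells held 77 and 30 UMIs, 44 of the former in 1 cell, with a log2 ratio of −1.12 (−1.80 to −0.51) and 0.09 (−0.68 to 0.84). In monocyte-like cells 2 of 6 members tested passed the fold, against 11.6% of 10341 genes, and in macrophage-like cells 2 of 4, against 17.7% of 7645. Both times they were Acp5 and Ctsk.

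Ctsk (chr3:95499256-95509362, plus strand) encodes the main collagen-degrading protease of osteoclasts, and most of its RNA in the periosteum was mesenchymal. Mesenchymal-like cells held 1869 UMIs in 76.3% of ND cells and 2892 UMIs in 73.5% of HFD cells, 391 UPM (373 to 409) and 416 UPM (401 to 431). This was a log2 ratio of 0.089 (0.0049 to 0.17), close to equal. Levels were 555 and 543 UPM in the Mmp13- and Ibsp-led subcluster, 448 and 402 UPM in tenocyte-like cells, 397 and 498 UPM in Col15a1 fibroblast-like cells and 232 and 206 UPM in Pi16 fibroblast progenitor-like cells. Each of these differed by less than 1.5-fold between the diets. Chondrocyte-like cells had 214 UPM (160 to 280) in 16 ND cells and 416 UPM (368 to 469) in 53 HFD cells, log2 0.95. In this subcluster 33.8% of 5344 genes passed the fold. Neutrophil markers there summed to 48834 and 6537 UPM, and their part was not tested. A subcluster of 5 ND and 15 HFD cells led by Prg4, the lubricant protein of joint linings, had the highest levels, 1552 UPM and 800 UPM. In B cell-like cells, the background, Ctsk had 0.523 and 1.97 UPM, from 4 UMIs in ND and 15 in HFD.

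In monocyte-, macrophage- and neutrophil-like cells, the size of the Ctsk difference between the diets rested on few cells. Monocyte-like cells held 428 UMIs in ND and 31 in HFD, 75.3 and 5.36 UPM, a log2 ratio of −3.79 (−4.39 to −3.28). One ND cell held 407 of the UMIs, and without it the ratio was 0.53 (−0.31 to 1.41). Macrophage-like cells held 30 UMIs (25.6 UPM) and 63 UMIs (62.8 UPM), log2 1.28. This was 0.52 (−0.21 to 1.27) without 1 HFD cell that held 26, with the leading ND cell of 17 kept. Neutrophil-like cells held 59 and 110 UMIs, log2 0.81, and −0.04 without the HFD cell of 49 UMIs, with the ND cell of 34 kept. Of these, 3 to 49 UMIs each were in 5 cells of 1 neutrophil-like cluster that also carried 74 to 353 Dcn UMIs, a fibroblast RNA, and lay within the top 5% of doublet scores.

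**Figure D2:**
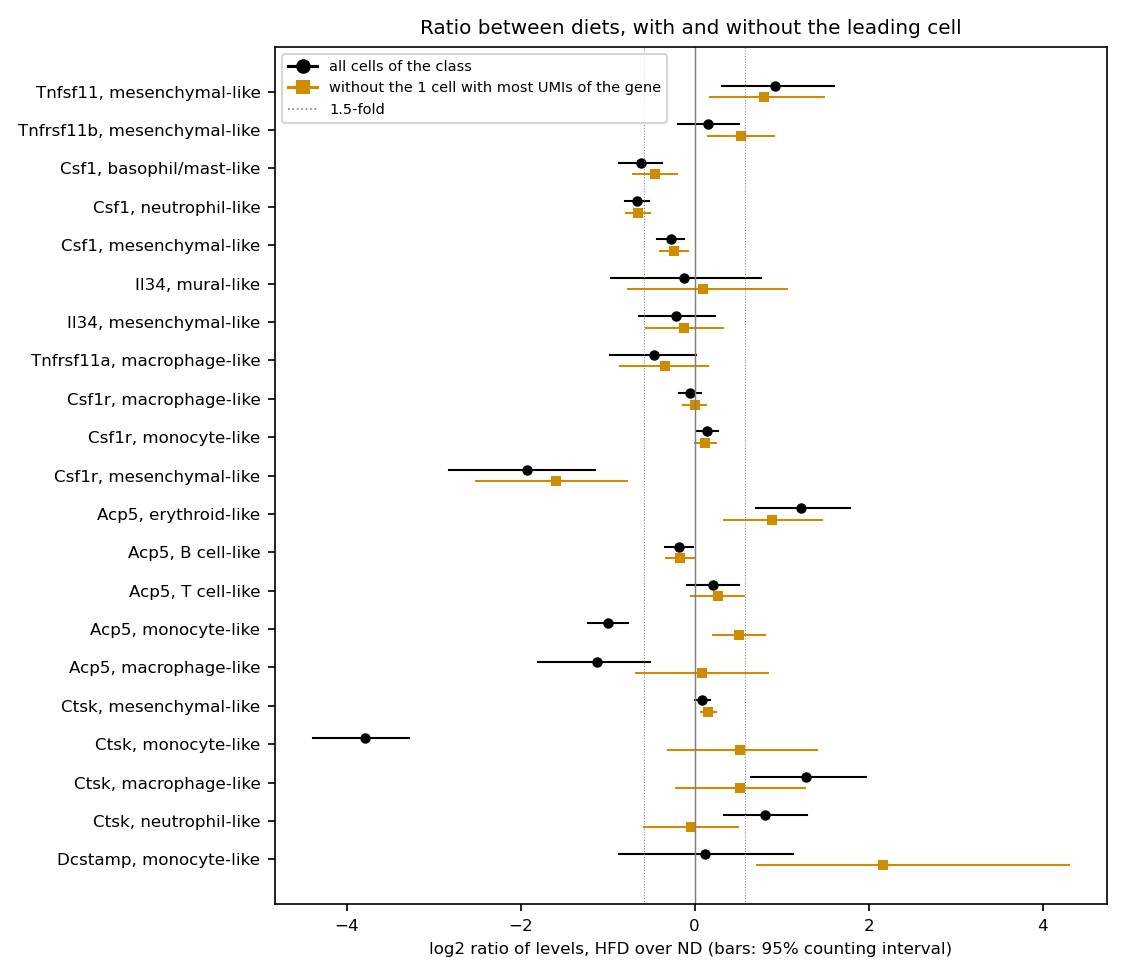
Log2 ratio of HFD over ND for members in the classes described in the text, with all cells and without the cell that held the most UMIs of the gene, with 95% intervals for counting error. The leading cell of the other library was kept. The ratios of Acp5 and Ctsk in monocyte-like cells lie at −0.99 and −3.79 with all cells and at 0.51 and 0.53 without the leading cell, whereas that of Tnfsf11 in mesenchymal-like cells moves from 0.93 to 0.80.

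The cell behind the ND values had 54304 UMIs over 5309 genes and was placed in the monocyte-like cluster led by Ms4a6c, F13a1 and Lyz2. It held 296 UMIs of Acp5, 407 of Ctsk and 14 of Dcstamp, along with 20 of Atp6v0d2, a subunit of the osteoclast proton pump, 42 of Mmp9, 9 of Slc9b2 and 9 of Nfatc1, the transcription factor of osteoclast differentiation. It held 8 UMIs of Csf1r and 3 of Tnfrsf11a, but 0 of the monocyte gene Lyz2 and 0 of Col1a1. An HFD cell of 24947 UMIs held 123 of Acp5, 14 of Ctsk, 10 of Atp6v0d2 and 7 of Nfatc1. Another ND cell, of 28597 UMIs, held 84 of Acp5, 7 of Atp6v0d2, 7 of Tnfrsf11a and 12 of Nfatc1, with 0 of Ctsk. Each of the latter had 1 Lyz2 UMI, and none of these 3 cells had a doublet score in the top 5%. They were singled out after their values were seen, and 2 such cells against 1 give no comparison of the diets.

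**Figure D3:**
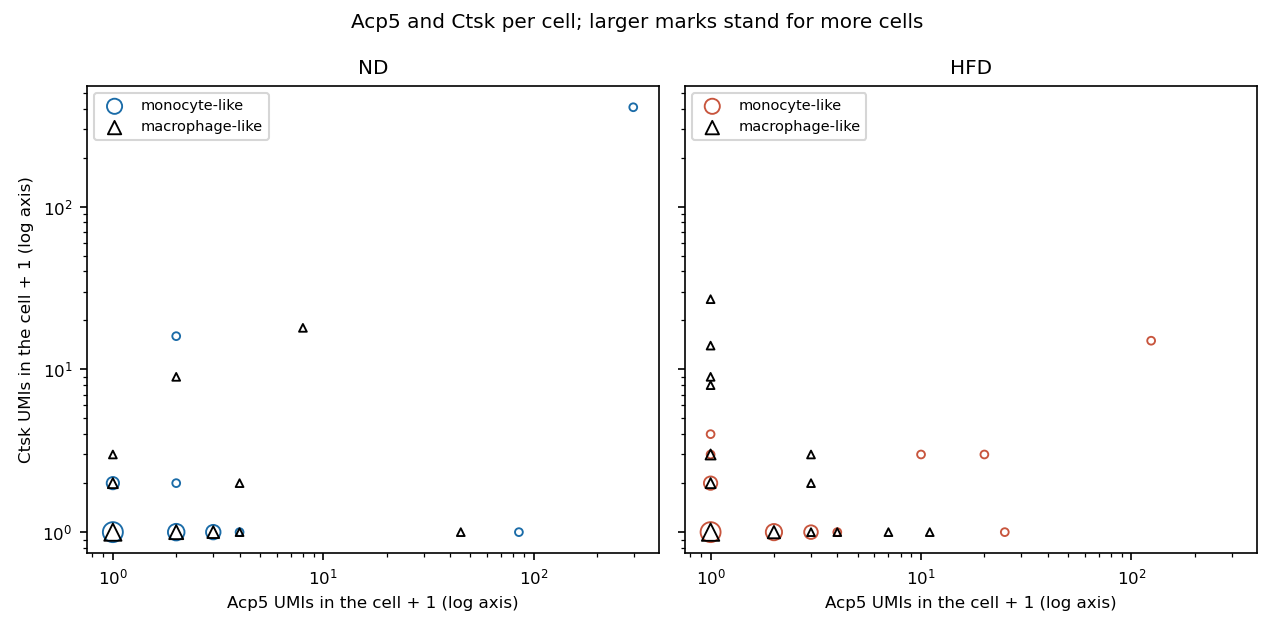
UMIs of Acp5 (x axis) and Ctsk (y axis) per cell in monocyte-like and macrophage-like cells of ND and HFD, with larger marks for more cells at the same values. Most cells lie at or near 0, and the single ND cell at 296 Acp5 and 407 Ctsk UMIs stands apart.

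With monocyte-like and macrophage-like cells pooled, 2 of 6 members passed the fold, against 11% of 10998 genes. These were Acp5, at a log2 ratio of −1.01 (−1.23 to −0.79) and 0.16 (−0.10 to 0.42) without the leading cell, and Ctsk, at −2.26 (−2.61 to −1.95) and 0.89 (0.39 to 1.42). Both ratios changed sign when this 1 ND cell was left out, with the HFD cell of 123 Acp5 UMIs kept. With each cell thinned to 1000 UMIs they were 0.092 for Acp5 and −0.82 for Ctsk. Cells with UMIs of at least 3 of 9 osteoclast genes (Acp5, Ctsk, Dcstamp, Ocstamp, Atp6v0d2, Calcr, Oscar, Itgb3 and Mmp9) numbered 39 in ND and 29 in HFD, of which 22 and 20 were mesenchymal-like and 4 and 6 monocyte-like. Mmp9, at 14109 and 14014 UMIs, is also a neutrophil gene, and together with the mesenchymal Ctsk it enters such a count in cells that are not osteoclasts. At 5 or more genes, 1 ND cell and no HFD cell remained.

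The leading ND cell held Acp5 and Ctsk together in large numbers, while most Acp5 UMIs were in blood cells and most Ctsk UMIs in mesenchymal-like cells, with both in tenocyte-like cells and in the subcluster led by Prg4. For that reason the bases before their annotated starts are shown (RefSeq, GRCm38.p6, 250 bases 5′ to 3′ on the gene's strand). Capitals mark GAGGAA or its reverse complement TTCCTC, a core bound by ETS family factors such as PU.1, at 233 and 58 bases before the Ctsk start (chr3:95498960-95499209, plus strand). Acp5 has several annotated starts, and windows before the distal one (chr9:22135747-22135996, minus strand) and an internal one (chr9:22131866-22132115, minus strand) are given.
Ctsk: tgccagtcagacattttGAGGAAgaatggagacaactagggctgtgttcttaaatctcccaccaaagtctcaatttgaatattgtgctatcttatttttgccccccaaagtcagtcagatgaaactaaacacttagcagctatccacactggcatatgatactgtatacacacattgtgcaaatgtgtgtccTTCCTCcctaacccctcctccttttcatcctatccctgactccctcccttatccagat
Acp5 distal start: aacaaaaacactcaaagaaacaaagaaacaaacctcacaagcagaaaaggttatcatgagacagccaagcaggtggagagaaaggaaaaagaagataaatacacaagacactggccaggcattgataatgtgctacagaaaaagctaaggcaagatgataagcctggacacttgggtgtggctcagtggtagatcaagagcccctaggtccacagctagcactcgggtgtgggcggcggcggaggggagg
Acp5 internal start: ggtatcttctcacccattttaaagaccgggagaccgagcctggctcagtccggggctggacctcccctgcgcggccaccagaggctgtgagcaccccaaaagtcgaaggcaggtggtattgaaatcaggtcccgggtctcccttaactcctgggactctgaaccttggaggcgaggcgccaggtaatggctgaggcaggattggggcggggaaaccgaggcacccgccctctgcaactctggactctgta
The letters CACGTG (an E-box), GAGGAA and TGACTCA (an AP-1 site) were searched on both strands, and 6.02%, 23.3% and 4.46% of 32851 promoter windows of this length hold them. Neither Acp5 window holds any of them, which says only that these letters are not in these windows. The 3′ tags do not tell which start was used, and a match is a description, not a bound site.

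Genes of the wider RANK pathway were counted in monocyte-like and macrophage-like cells together. A count near the share over all genes, from 1 library per diet, says nothing particular about the pathway. Of 16 RANK signaling genes tested, 1 was higher past the fold and 0 lower, with a median log2 ratio of 0.06, against a median of 0.02 over all genes, 4.13% of which were higher and 6.89% lower. The one was Gab2, an adaptor recruited to RANK, at 12.1 UPM in ND and 19.5 UPM in HFD (0.68). Map3k7, which encodes the kinase TAK1, had 0.26, and the lowest were Nfkbia, the inhibitor of NF-kB, at −0.38 and Nfatc1 at −0.12. Of 10 ITAM costimulation genes none passed, with ratios from Trem2 (−0.43) and Plcg2 (−0.14) to Fcer1g (0.07) and Sirpb1a (0.07). Of 9 CSF1 receptor signaling genes none passed either, and among those with at least 100 UMIs Pik3r1 (−0.25) and Tfe3 (−0.21) were lowest and Spi1, the gene of PU.1, (0.20) and Ptpn6 (0.18) highest.

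Osteoclast function genes went both ways, with 2 of 13 higher, 2 lower and a median of −0.16. The lower were Mmp9, a gelatinase, at 40.1 and 18.0 UPM (−1.15, −1.48 to −0.85), and Car2, a carbonic anhydrase, with 41 and 23 UMIs. The higher were Itgb3, with 25 and 42 UMIs, and Ocstamp, with 14 and 23. Ostm1 (−0.21), Snx10 (0.05) and Tcirg1 (0.04), which serve the acid compartment, were within the fold. Of 9 osteoclast repressors, 2 were lower and 0 higher, with a median of −0.15. These were Id1, at 62.3 and 23.6 UPM (−1.40), and Tnfaip3, which encodes the NF-kB brake A20 (−0.60), and the highest were Traf3 (0.16) and Bcl6 (0.13). Of 11 RANKL-inducing receptors and factors, 2 were lower, Osm (67.4 and 34.3 UPM, −0.97) and Il6 (19 and 9 UMIs). Tnf was at −0.33, and the highest were Tnfrsf1a, a receptor of TNF, at 165 and 213 UPM (0.37) and Il1b (0.20). Mmp9 is also a neutrophil gene, and the 8 neutrophil markers, all detected, summed to 8838 UPM in ND and 6482 UPM in HFD in monocyte-like cells and to 2191 and 1491 UPM in macrophage-like cells. Their part in the Mmp9 difference was not tested. A monocyte-like cluster led by Ccl2 held 113 ND and 35 HFD cells, and without it Mmp9 was −1.33, Id1 was −0.79, and Car2, Tnfaip3 and Osm no longer passed the fold.

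In mesenchymal-like cells, which held 50.7% of the Tnfsf11 UMIs, the genes known to induce RANKL were examined in the same way. Of the 110 Tnfsf11 UMIs of this class, 98 lay in 1 subcluster, while the values below are of the whole class. That subcluster made up 59 of 409 ND cells and 128 of 668 HFD cells of the class. The part of this difference in the ratios below was not tested. Of 16 tested, 1 was higher past the fold and 4 were lower, with a median of −0.06, against 0.05 over all genes, 8.09% of which were higher and 5.91% lower. The higher one was Vdr, the vitamin D receptor, with 24 UMIs (5.02 UPM) in ND and 70 UMIs (10.1 UPM) in HFD (0.98, 0.32 to 1.74). Pth1r, the parathyroid hormone receptor, was at 0.49 and Osmr at 0.36. The lower were Il1b (146 and 63.3 UPM, −1.21), Osm (−1.12), Il11 (−0.86) and Il6ra (−0.79), of which Il1b and Osm are made mainly by leukocytes. ITAM costimulation genes, which are myeloid, were lower for 7 of 9 tested, with Fcer1g at 164 and 81.3 UPM (−1.02) and Tyrobp at 276 and 162 UPM (−0.77), and CSF1 receptor signaling genes for 4 of 10. These move with the neutrophil markers given above for this class, whose part was not tested. RANK signaling genes, of which none of 17 passed, had a median of 0.06.

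The genes whose levels followed those of a member most closely over the 26 combinations of named class and diet were taken by Pearson correlation of log2(UPM + 10) among 11751 genes with at least 200 UMIs. These are descriptions over classes that share their libraries and depths, and most points of a gene of 1 class lie near 0. For Tnfrsf11b they were P4ha3, Fgf7 and Dync1i1 (r at least 0.998), for Il34 Trabd2b (0.999), Dmpk and Tbx2 (0.991 each), and for Csf1r P2ry6, Ptpro and Adgre1 (0.955, 0.954 and 0.953). Tnfrsf11a lay nearest to Prxl2b, Ccl24 and Mtmr10 (0.916, 0.906 and 0.905), Ctsk to Dennd2a, Bdh2 and Clmp (0.941, 0.933 and 0.927), and Csf1 to Scin, Prkd3 and Klf5 (0.877, 0.869 and 0.857). Acp5, with its spread over lymphocytes, erythroid-like and myeloid cells, had the weakest neighbours, Cdc25b, C2cd3 and Jpt1 (0.776, 0.752 and 0.707).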

How the data were processed

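For each diet a single matrix was deposited, with UMI counts that were not normalized, made with Cell Ranger 6.0.1 on mm10 per the submitters' processing notes, in which the 4 mice of a diet cannot be told apart. The cell filter left out 285 ND and 412 HFD barcodes. Cells were clustered with Seurat 5.3.0 (SCTransform with cell cycle scores regressed, 30 components, resolution 0.5), with the member and pathway genes, 44 of 3000 variable features, kept out. Clusters were named from at least 3 detected markers, and one where 2 classes scored within 0.5 log2 stayed unnamed, except between monocyte and macrophage, where the higher score gave the name, a rule set after the clusters were seen. Scrublet's automatic limit marked 0.149% and 0.370% of cells, too few to have worked, so no doublets were removed.

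Counts were summed per class and diet. Levels have exact Poisson, ratios exact conditional and shares Clopper-Pearson intervals at 95%, and 0 counts allow up to 3. No correction for free RNA was made. Background classes were neutrophil-like for ligands and B cell-like for receptors and products, except that for Acp5, which B cell-like cells held in quantity, neutrophil-like cells were used. Csf1, of which neutrophil-like cells held 44.8% of the UMIs, was left without a background class. Scripts were tested on simulated data. The members, lists and comparisons were chosen with earlier results of these data known. The text names the members, the 2 highest and 2 lowest ratios of each list in monocyte- and macrophage-like cells (RANKL inducers also in mesenchymal-like cells) among genes with at least 100 UMIs, the 3 genes most like each member with at least 200 UMIs in the named classes and, chosen after their values were seen, other genes past the fold. Python 3.11.15, scipy 1.17.1 and R 4.3.3 were used.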

Additional observations from a re-analysis of the deposited data

Results flagged for a closer look

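Member RNAs were also found in data outside the comparisons above. The barcodes left out by the cell filter, 285 in ND and 412 in HFD, held 23 Ctsk UMIs in HFD against 3 in ND, and 10 Acp5 UMIs in HFD against 2 in ND. Of the HFD UMIs, 10 of Ctsk and 5 of Acp5 were in 1 barcode each. The left-out barcodes also held 21 Csf1 UMIs in ND and 22 in HFD, 22 Csf1r UMIs in ND and 14 in HFD, and 1 Tnfrsf11b UMI in ND and 4 in HFD. The cluster that stayed unnamed, led by Car1, Ctla2a and Pf4, held 13 Tnfsf11 UMIs in 6 of 313 ND cells and 35 in 10 of 242 HFD cells, of which 17 were in 1 cell. It also held 57 Csf1r UMIs in ND and 24 in HFD, 40 and 15 of Acp5, 26 and 18 of Csf1, 5 and 4 of Tnfrsf11a, 4 and 2 of Dcstamp, 0 and 5 of Il34 and 4 and 4 of Ctsk. Members are given where at least 1 library lay above the 3 that a count of 0 allows. None of these cells entered a comparison of a named class.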

How the results depend on the processing

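Of the values that answer a comparison, 160 moved by less than counting error or within 1.5 times under an alternative, and 25 moved by more. A further 4 were ratios past the fold that changed sign. Changes of sign in ratios under the fold, as for Dcstamp in monocyte-like cells, were not counted apart. No paired analysis was possible because the mice of a diet are pooled in 1 matrix, and for the same reason no replicate could be left out. With cells thinned to 1000 UMIs, the log2 ratio was −0.25 for Tnfsf11 and −0.10 for Ctsk in mesenchymal-like cells, −1.16 for Csf1 in basophil/mast-like cells, 0.30 for Acp5 in erythroid-like cells, and 0.092 for Acp5 and −0.82 for Ctsk in monocyte- and macrophage-like cells. The members past the fold were then 0 in mesenchymal-like cells and 1 in monocyte- and macrophage-like cells, and the Tnfsf11 share of Tnfsf11 and Tnfrsf11b UMIs in ND was 29.4%. With equal weight per cell the ratio was 0.53 for Tnfrsf11b in mesenchymal-like cells, 0.30 for Acp5 in erythroid-like cells, and −0.060 for Acp5 and −0.10 for Ctsk in monocyte- and macrophage-like cells. Without the cell with the most UMIs of the gene, an alternative added after seeing the data that kept the leading cell of the other library, it was 0.53 for Tnfrsf11b in mesenchymal-like cells, 2.16 for Dcstamp in monocyte-like cells, and 0.16 for Acp5 and 0.89 for Ctsk in monocyte- and macrophage-like cells. For Dcstamp in monocyte-like cells it was −3.28 when member and pathway genes entered the clustering, −3.33 at resolution 0.25 and −3.36 at resolution 1.0, where 4 members passed the fold in monocyte- and macrophage-like cells, and at resolution 0.25 it was −0.34 for Csf1r in macrophage-like cells. In these clusterings the cluster led by H2-Eb1 and Retnla, with 19 of the 20 HFD UMIs of Dcstamp, was unnamed or, at resolution 0.25, not a cluster of its own. For the other values the cause was not tested. With a minimum of 100 UMIs 1 member, Tnfsf11, passed in mesenchymal-like cells. At 2-fold 1 member, Csf1r, passed there and 0 over all kept cells, as fewer genes meet these limits. For the counts of members under these and the other alternatives, the share over all genes was not computed, so they cannot be set against it. Cells with UMIs of at least 2 of the 9 osteoclast genes numbered 375 in ND and 456 in HFD, and of at least 4, 6 and 2. Scrublet's automatic limit marked too few cells to test doublets, and removing the top 5% of scores, added later, changed none of these values beyond counting error. Of 320 levels recomputed, 277 moved by less than counting error. Depth limits Dcstamp, Tnfsf11 and Il34 most, at 50, 217 and 249 UMIs over both libraries, and Oscar was too sparse to compare.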
